A study of Mus musculus with 6 samples.

Results

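Genes of muscle precursor cells and of myoblast fusion were followed in denervated gastrocnemius muscle of mice that ate maslinic acid (MA), a triterpene of olive peel. They were the muscle-specific transcription factors Myf5, Myod1, Myog and Myf6, the paired-box factors Pax3 and Pax7, the surface proteins Cdh15 and Megf10, and the fusion proteins Mymk and Mymx. All 10 were measured, by 12 probe sets that each name 1 of them alone in the platform annotation, out of 45037 probe sets and 17097 named genes. The MA group was 3 arrays from male ICR mice given an AIN-93G diet that held 0.27% MA, and the control group 3 arrays from male ICR mice given that diet alone. The mice were 7 weeks old at the start, were acclimatized for 1 week, and ate their diets for 1 week before both sciatic nerves were cut and a 5 mm piece was removed. The same diets were kept up until the experiment ended. Muscle was taken on day 14 after surgery, so that both groups were denervated and no innervated muscle was compared here. ICR is an outbred stock. Whether each array stands for its own mouse is not stated in the labels, and p-values therefore cover the spread between these arrays alone.

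Skeletal muscle grows and repairs itself from satellite cells, which lie along the fibers and are marked by Pax7 and, in some muscles, Pax3. When these cells are activated, Myf5 and Myod1 commit them to the muscle fate, Myog drives their differentiation, and Mymk and Mymx let the differentiated cells fuse with each other and with fibers. The factors Myf5, Myod1, Myog and Myf6 are basic helix-loop-helix proteins that pair with E proteins and bind the E-box, a short DNA motif. Nuclei inside fibers also express them. Myf6 is the main one of adult fibers, and loss of the nerve is known to raise Myog and Myod1 in fibers, which then express embryonic forms of the acetylcholine receptor. In RNA from whole muscle, fewer cells of a type and less RNA per cell cannot be told apart.

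All values are log2 values that the authors made with RMA, 1 per probe set and array. The 6 arrays had medians between 4.27 and 4.28. Over all tested probe sets, r was 0.9992 or more between 2 arrays of a group and 0.9937 or less between an MA and a control array, with features that do not count as replicates. A level of 3.95 was taken as the background limit, the highest value of 22 control probe sets for nonspecific binding, and 1 further control, made of G and C only, stood at 7.11 to 7.33. Muscle fiber genes were far above it, and Acta1, the skeletal muscle actin, averaged 12.62 ± 0.01 on MA arrays and 12.49 ± 0.01 on control arrays (SD, n = 3 each). The 18 probe sets of the hybridization controls, bacterial and phage transcripts added to each sample, were all higher in the MA group, by 0.04 to 0.35 with a median of 0.17.

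Of the 10 genes, 3 rose and 6 fell in the MA group, and Pax3 did not pass the test. Here a gene rose or fell when its brightest probe set had an adjusted p under 0.05 in limma, at any fold. Over all named genes 47.8% passed that test, 24.7% higher and 23.0% lower in the MA group, so that a pass alone is common in these arrays. With the study's rule of a fold over 1.2 and an unadjusted p under 0.05, which 12.8% of all named genes met, 6 of the 10 genes remained. Myf5, Myf6 and Cdh15 were higher, as were 5.92% of all named genes, and Myod1, Megf10 and Mymx were lower, as were 6.87%. The median difference over the 10 genes was -0.13, against 0.01 over all named genes. Of the 12 probe sets, 11 passed the test (3 higher and 8 lower), against 42.9% of all probe sets (21.6% higher and 21.4% lower), and 11 had groups that did not overlap, as had 53.9% of all probe sets. Among the 8 lower, the probe set of Pax7 averaged under the background limit in the MA group and those of Pax3 in both groups. Pax7 is also counted among the 6 genes that fell.

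**Figure D1:**
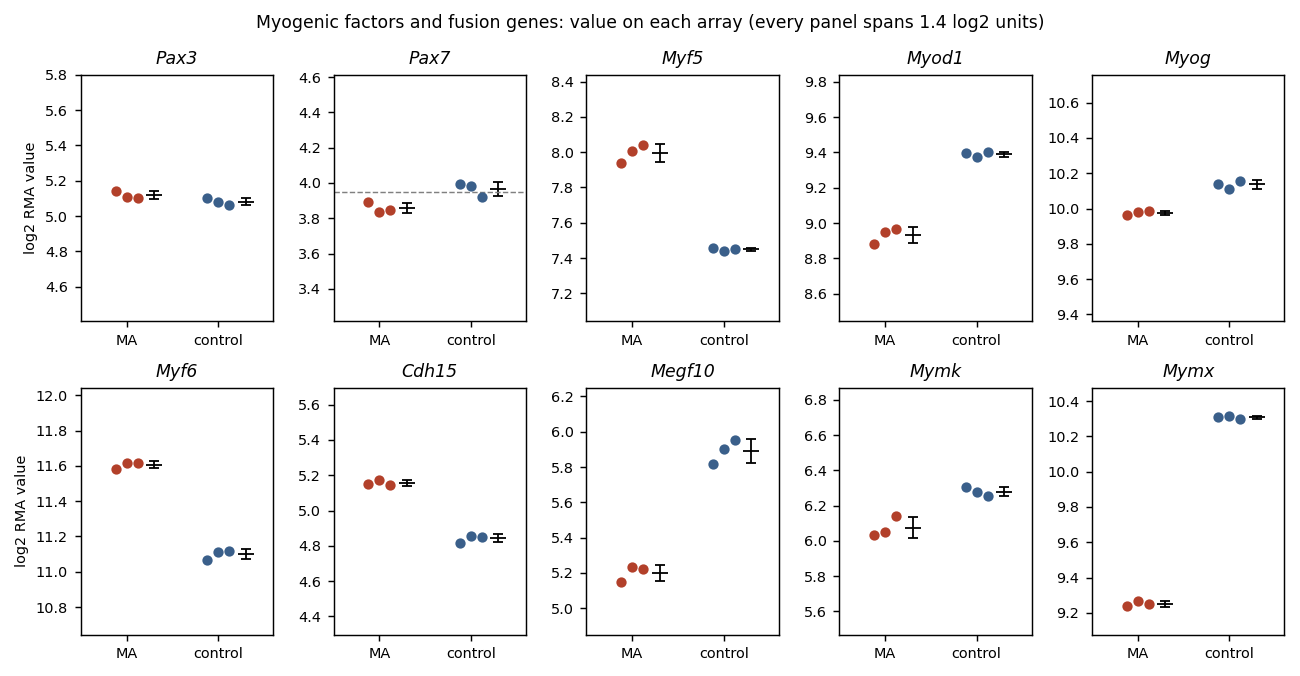
Log2 RMA value (vertical axis) of the brightest probe set of each of the 10 genes on the 3 MA arrays (red, left) and the 3 control arrays (blue, right), with the group mean and SD as a black bar and the background limit of 3.95 as a dashed line where it falls in the panel. The groups are apart in every panel but that of Pax3, with MA above control for Myf5, Myf6 and Cdh15.

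The paired-box factors gave no firm difference. Pax7, the factor that satellite cells need to persist, had values of 3.89, 3.84 and 3.85 on the MA arrays and 3.99, 3.98 and 3.92 on the control arrays. All 3 MA arrays and 1 of the control arrays lay under the background limit of 3.95, so that no fold is given. Its difference of -0.11 passed the test (adjusted p = 0.0146), and no longer passed with the one-way test of the methods (adjusted p = 0.052) or without MA replicate 2 (adjusted p = 0.0585), MA replicate 3 (adjusted p = 0.0501) or control replicate 2 (adjusted p = 0.0524). Pax3, its close relative, had 5.14, 5.11 and 5.10 on the MA arrays and 5.10, 5.08 and 5.06 on the control arrays at its brightest probe set. These overlap, and the difference of 0.04 did not pass (adjusted p = 0.258, 95% interval -0.02 to 0.09). The other probe sets of Pax3 averaged 3.36 and 3.01 on MA arrays and 3.54 and 3.13 on control arrays, all under the background limit. Both of those passed with lower values in the MA group (adjusted p = 0.00143 and 0.0044), but at such levels they give no direction for Pax3.

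Myf5 and Myf6, which lie next to each other on chromosome 10 with 0 annotated genes between them, both rose. Myf5, a factor of early commitment that satellite cells keep expressing, had 7.94, 8.00 and 8.04 on the MA arrays and 7.45, 7.44 and 7.45 on the control arrays. Every MA array was above every control array, by 1.46-fold on average (log2 difference 0.54, standard error 0.03, adjusted p = 2.25e-06). Myf6, also called MRF4, had 11.58, 11.62 and 11.62 on the MA arrays and 11.07, 11.11 and 11.12 on the control arrays. It was 1.42-fold higher in the MA group (log2 difference 0.51, standard error 0.02, adjusted p = 1.21e-06), again with no overlap. Of all named genes, 264 had a larger rise than Myf5 and 301 a larger rise than Myf6.

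Promoter sequence, 250 bases before to 50 after an annotated start, was at hand from RefSeq for 4 of the 10 genes, Myog, Myf5, Pax7 and Cdh15. The E-box is CANNTG, which reads as itself on both strands, and 72.3% of 32851 promoter windows of this length hold at least 1. Those of Myf5 and Cdh15, whose RNA rose, and of Myog, whose RNA fell, are shown from GRCm38.p6, 5′ to 3′ on the gene's strand, with E-boxes in capitals.
Myf5, chr10:107486085-107486384, minus strand: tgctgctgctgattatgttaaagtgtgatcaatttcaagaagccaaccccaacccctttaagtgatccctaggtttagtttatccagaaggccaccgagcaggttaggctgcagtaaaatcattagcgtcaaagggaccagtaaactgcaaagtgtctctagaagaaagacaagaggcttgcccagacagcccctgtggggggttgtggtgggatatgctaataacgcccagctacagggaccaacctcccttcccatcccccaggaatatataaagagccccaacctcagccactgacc
Cdh15, chr8:122848124-122848423, plus strand: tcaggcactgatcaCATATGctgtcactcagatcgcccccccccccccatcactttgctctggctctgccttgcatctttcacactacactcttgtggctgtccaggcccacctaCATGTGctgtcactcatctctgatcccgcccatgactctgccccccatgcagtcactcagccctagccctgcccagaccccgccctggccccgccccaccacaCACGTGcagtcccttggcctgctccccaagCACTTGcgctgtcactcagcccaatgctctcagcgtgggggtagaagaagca
Myog, chr1:134289754-134290053, plus strand: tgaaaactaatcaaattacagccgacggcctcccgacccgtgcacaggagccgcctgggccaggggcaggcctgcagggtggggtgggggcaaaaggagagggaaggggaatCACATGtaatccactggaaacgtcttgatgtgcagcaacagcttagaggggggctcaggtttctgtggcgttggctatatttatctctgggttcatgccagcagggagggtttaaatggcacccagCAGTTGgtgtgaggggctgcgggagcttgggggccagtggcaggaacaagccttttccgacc

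The window of Myog held 2 E-boxes, at positions -138 and -12 from the start. The MEF2 consensus was searched as YTAWWWWTAR, where Y is C or T, W is A or T and R is A or G. None of the windows shown held a full match, which 3.19% of windows hold. The Myog window holds ctatatttat, which differs from the consensus in its last letter. Cdh15 held 4 E-boxes, between -236 and -2, and 6.49% of windows hold 4 or more. The windows of Myf5 and of Pax7 held 0. The matches shown do not overlap, and they describe the letters of these windows only.

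Myod1 and Myog, the factors that denervation raises in fibers, were both lower in the MA group, Myod1 by more. Myod1 had 8.88, 8.95 and 8.96 on the MA arrays and 9.39, 9.37 and 9.40 on the control arrays, 1.38-fold lower with no overlap (log2 difference -0.46, standard error 0.03, adjusted p = 4.18e-06). Myog had 9.96, 9.98 and 9.98 on the MA arrays and 10.14, 10.11 and 10.16 on the control arrays. It too fell with no overlap, but by 1.12-fold (log2 difference -0.16, standard error 0.02, adjusted p = 6.48e-04), under the study's 1.2-fold. The size of that difference is below the median of 0.17 of the hybridization controls, which moved the other way. Among all named genes, 411 fell by more than Myod1 and 2240 by more than Myog. The 4 basic helix-loop-helix factors therefore split, with Myf5 and Myf6 higher and Myod1 and Myog lower in the same arrays, and each passed the test in its own direction under each of the 16 alternatives run.

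Of the surface proteins of muscle precursors, one rose and the other fell. Cdh15, the muscle cadherin by which satellite cells hold on to fibers and to each other, had 5.15, 5.18 and 5.14 on the MA arrays and 4.82, 4.86 and 4.85 on the control arrays, a 1.24-fold rise with no overlap (log2 difference 0.31 with a standard error of 0.02, adjusted p = 1.40e-05). Megf10, a receptor with EGF-like repeats that satellite cells express, had 5.15, 5.23 and 5.22 on the MA arrays and 5.82, 5.90 and 5.95 on the control arrays. It was 1.61-fold lower in the MA group (log2 difference -0.69, standard error 0.04, adjusted p = 2.99e-06), and 187 named genes fell by more. Neither gene had overlapping groups, and all arrays were above the background limit for both. The rise of Cdh15 lies within the 0.04 to 0.35 by which the hybridization controls were higher in the MA group. Whether it shares a technical source with them was not tested.

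The largest difference among the 10 genes was that of Mymx, also called myomixer, myomerger or minion, a very small membrane protein that completes the merging of myoblasts. It had 9.24, 9.27 and 9.25 on the MA arrays and 10.31, 10.32 and 10.30 on the control arrays. That is 2.08-fold lower in the MA group (log2 difference -1.06, standard error 0.02, adjusted p = 8.46e-09), and 77 of the 17097 named genes fell by more. Mymk, or myomaker, the multipass membrane protein that starts the fusion of the outer membrane layers, had 6.03, 6.05 and 6.14 on the MA arrays and 6.30, 6.28 and 6.25 on the control arrays. It fell by 1.15-fold with no overlap (log2 difference -0.21, standard error 0.03, adjusted p = 0.00132), and its 95% interval of -0.28 to -0.13 lies away from that of Mymx, -1.11 to -1.01. Both fusion genes were thus lower, Mymx past 1.2-fold and Mymk short of it.

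**Figure D2:**
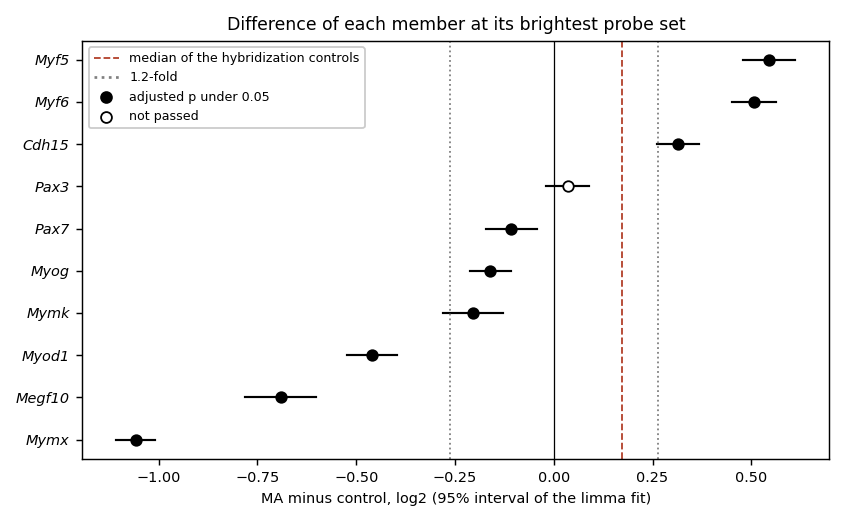
Difference MA minus control (log2, horizontal axis) of the brightest probe set of each gene, with the 95% interval of the limma fit, dotted lines at 1.2-fold and a dashed line at 0.17, the median of the hybridization controls. Myf5 at 0.54 and Myf6 at 0.51 stand at the one end and Mymx at -1.06 at the other, and only Pax3 (open point) did not pass the test.

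The partners of the myogenic factors went both ways. Of 27 measured cofactors, 8 rose, 6 fell and 13 did not pass, a share of 51.9% passing against 47.8% of all named genes, with a median difference of 0.04. Vgll2 and Vgll3, muscle cofactors of the TEAD factors, rose by 0.94 and 0.65 on the log2 scale, Vgll2 with 8.67 ± 0.02 on MA arrays and 7.73 ± 0.02 on control arrays (SD, n = 3 each). Eya4, a transcriptional cofactor, rose by 0.52, with its 3 probe sets between 0.01 and 0.58. Hes6, which promotes differentiation against Hes1, fell by 0.52. The bright members moved little, with 0.08 for Mef2c and -0.15 for Mef2a, factors that bind DNA beside the myogenic factors, and -0.07 for Kat2b, the acetyltransferase PCAF, whose 3 probe sets lay between -0.68 and 0.02. The E protein Tcf12, a pairing partner, differed by -0.02 (adjusted p = 0.561) and Tcf4, another, fell by 0.18. Tcf3, the remaining E protein of the list, differed by -0.11 without passing (adjusted p = 0.0735). All of these were looked up for their role.

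Among factors that hold the myogenic factors back, 10 of 29 measured genes were lower in the MA group, 5 were higher and 14 did not pass, a share of 51.7% passing against 47.8% of all named genes, and the median difference was -0.02. Past 1.2-fold, 8 fell and 2 rose, against 6.87% lower and 5.92% higher of all named genes. Hes1, a repressor that Notch induces, averaged 6.53 ± 0.02 on MA arrays and 7.36 ± 0.02 on control arrays (SD, n = 3 each), a fall of 0.82. Id1 and Id2, which bind E proteins and keep them from the myogenic factors, fell by 0.72 and 0.59, while Id3, of the same family, rose by 0.23 (adjusted p = 4.75e-04). Id4, also of that family, fell by 0.34, with 3 probe sets between -0.34 and -0.06. Zeb2 and Bhlhe40, repressors of transcription, fell by 0.53 and 0.46, with 4 probe sets of Zeb2 between -0.64 and 0.00, and the bright Zeb1 fell by 0.11. Snai2 differed by 0.31 in the other direction (adjusted p = 1.74e-05), with a control mean of 3.93 that is under the background limit, and Hdac9, the other gene past 1.2-fold in that direction, was under the limit in both groups, with 3.94 on MA arrays and 3.63 on control arrays. Hdac4 was not analysed here. The histone deacetylase Hdac5 differed by 0.00 (adjusted p = 0.965), and Dach2, a repressor of Myog, lay under the background limit with 3.48 on MA arrays and 3.49 on control arrays.

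Genes listed as targets of MyoD and myogenin, for E-box control in differentiation or after denervation, changed in both directions. Of 35 measured, 12 rose, 16 fell and 7 did not pass, a share of 80% passing against 47.8% of all named genes, and 13 passed 1.2-fold, 4 higher and 9 lower, against 12.8% of all named genes. Tnnt2, the cardiac and embryonic troponin T, averaged 7.65 ± 0.01 on MA arrays and 8.42 ± 0.02 on control arrays (SD, n = 3 each), a fall of 0.76. Myl4, the atrial and embryonic myosin light chain, fell by 0.71 at its brightest probe set, while its other probe set differed by 0.16. Chrng, the embryonic subunit of the acetylcholine receptor, fell by 0.68, with 3 probe sets between -0.73 and -0.05, Chrnd, the delta subunit, by 0.38 and Cdkn1c, an inhibitor of the cell cycle, by 0.37. Other targets rose. These were Ncam1, the neural cell adhesion molecule of denervated fibers, by 0.62, with 6 probe sets between -0.10 and 0.62, Casq2, the slow and cardiac calsequestrin, by 0.56, Mybph, a myosin-binding protein, by 0.53 and Myh3, the embryonic myosin heavy chain, by 0.48. The targets with the brightest probe sets were fiber genes that changed little there, Acta1 by 0.13 and Myl1 and Tnnc2 by 0.03 and 0.02 without passing (adjusted p = 0.255 and 0.371). Brightest probe sets can differ from others of a fiber gene. Ckm and Tnni2 of this list rose by 0.17 and 0.19 at theirs, while other probe sets reached 0.83 and 0.66. Some further denervation-responsive genes of the list were named after their values were seen. Their direction therefore does not describe the list, whose median difference was -0.03. The ubiquitin ligases Fbxo32 and Trim63 fell by 0.35 and 0.23, the transcription factor Runx1 by 0.28, Rapsn, which clusters the receptor, by 0.28, its beta subunit Chrnb1 by 0.27 and Gadd45a, a stress-response gene, by 0.16. The 3 probe sets of Fbxo32 lay between -0.35 and 0.06, and the 6 of Runx1 between -0.40 and -0.06. Chrna1, the alpha subunit of the receptor, differed by -0.05 (adjusted p = 0.0705) and Musk, the kinase of the endplate, by -0.01 (adjusted p = 0.855).

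Satellite cell genes moved both ways as well. Of 33 measured besides the 10 genes above, 8 rose, 12 fell and 13 did not pass. Their median was -0.02 and 60.6% passed, against 47.8% of all named genes. Past 1.2-fold were 11, 4 higher and 7 lower, against 12.8% of all named genes. Cd82, a tetraspanin of satellite cells, averaged 8.02 ± 0.04 on MA arrays and 8.85 ± 0.01 on control arrays (SD, n = 3 each), a fall of 0.83. Sdc4, a heparan sulfate co-receptor, fell by 0.48, Fgfr1, a receptor of fibroblast growth factors, by 0.47, Gpx3, a secreted glutathione peroxidase, by 0.45 and the receptor Notch3 by 0.43. On the other side were Ncam1, given above, Igfbp6, an IGF-binding protein, which rose by 0.46, Fzd7, a Wnt receptor, by 0.42 and Spry1, an inhibitor of growth factor signaling in resting satellite cells, by 0.29. The bright Peg3 rose by 0.13, and Des, which fibers also express, differed by -0.02 (adjusted p = 0.414). Calcr, a marker of resting satellite cells, lay under the background limit with 3.41 on MA arrays and 3.42 on control arrays, as Pax7 did on the MA arrays. Other cells of muscle express several of these genes, among them Gpx3, Notch3, Fgfr1 and Cd82.

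Other genes of the fusion machinery went both ways. Of 56 measured genes of adhesion, actin remodeling and membrane traffic, 17 rose, 13 fell and 26 did not pass. Their median was 0.02 and 53.6% passed, near the 47.8% of all named genes. Past 1.2-fold were 16, 10 higher and 6 lower, against 12.8% of all named genes. Cav3, the caveolin of muscle, averaged 7.19 ± 0.01 on MA arrays and 6.44 ± 0.03 on control arrays (SD, n = 3 each), a rise of 0.75. Flnc, the filamin of muscle, rose by 0.50, Cd9, a tetraspanin that limits fusion, by 0.44, and Adam12, a metalloprotease of fusing myoblasts, by 0.43 at its brightest probe set, while its other probe set differed by 0.00. Ncam1, given above, is also in this list. Lower in the MA group were Ptger4, a prostaglandin receptor, by 0.48, Rnd3, a small GTPase, by 0.46, Dysf, the membrane repair protein dysferlin, by 0.40, Neo1, a netrin receptor, by 0.40 and Ctnnd1, a catenin, by 0.30. The bright Ctnnb1, beta-catenin, fell by 0.21, and Tmem182, a negative regulator of fusion, differed by 0.03 (adjusted p = 0.242). Rac1, a GTPase that fusing cells need for actin remodeling, differed by -0.05 (adjusted p = 0.0953) and was looked up for its role.

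**Figure D3:**
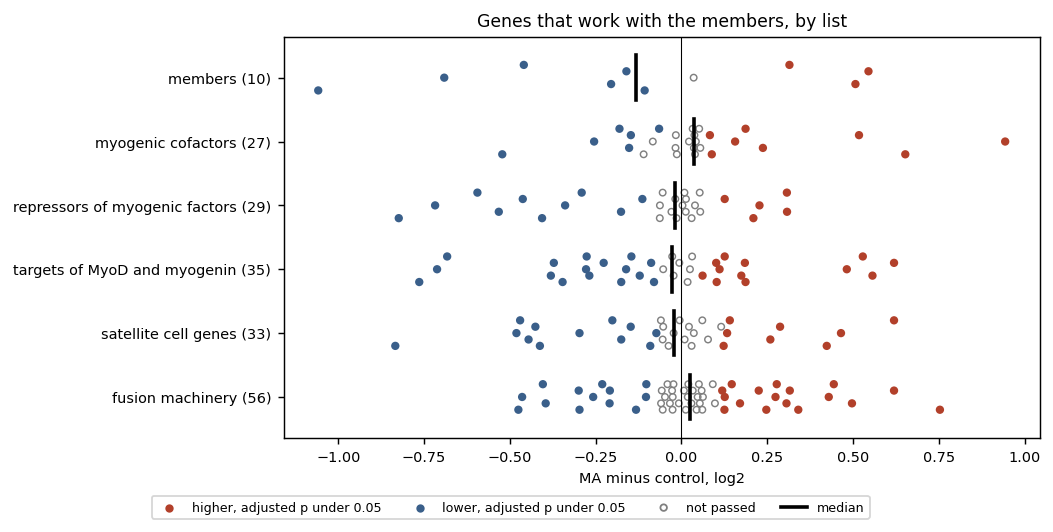
Difference MA minus control (log2, horizontal axis) of each measured gene of the 10 members and of 5 gene lists, with the number of genes in parentheses, filled points where the adjusted p was under 0.05, open points where it was not, and a black bar at the median. The list medians lie between -0.03 and 0.04, while single genes of the lists reach 0.94 (Vgll2) and -0.83 (Cd82) and Mymx among the members -1.06.

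Markers of other cell types of the tissue moved in the same arrays. The share passing was 85.7% for macrophage and for endothelial markers, 100% for tendon markers and 57.1% for muscle fiber markers. Of all named genes 47.8% passed, 24.7% higher and 23.0% lower. Of 21 measured macrophage markers, 18 were lower in the MA group, 0 were higher and 3 did not pass, and the mean of their log2 values was 6.12 to 6.15 on the MA arrays and 6.87 to 6.90 on the control arrays, with 1 marker under the background limit in both groups. The bright Lyz2 fell by 0.69 and Lgals3 by 0.56. Endothelial markers were lower in 12 of 14 cases, with 0 higher, a mean of 5.41 to 5.46 on the MA arrays and 5.63 to 5.69 on the control arrays, and falls of 0.33 for Ly6c1 and 0.24 for Egfl7. Tendon markers were higher in 8 of 8 cases, with a mean of 6.83 to 6.87 on the MA arrays and 5.94 to 5.95 on the control arrays, and rises of 1.64 for Thbs4 and 0.61 for Fmod. Muscle fiber markers differed less at their brightest probe sets, with 7 of 14 higher and 1 lower. Their mean was 12.08 on each of the MA arrays and 12.01 on each of the control arrays. Other probe sets reached 0.83 for Ckm and 0.66 for Tnni2, while those of Des lay between -0.04 and -0.02. The part of these cell types in the differences of Mymx, Megf10, Myod1, Myf5, Myf6 and Cdh15, and in those of the lists, was not tested.

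The remaining cell types gave smaller or mixed differences. The share passing was 71.4% for fibroblast, 55.6% for smooth muscle and pericyte, 75% for Schwann cell and 44.4% for T cell markers. It was 66.7% for blood and 85.7% for adipocyte markers, against 47.8% of all named genes. Of 14 markers of fibro-adipogenic progenitors and fibroblasts, 6 rose and 4 fell. Their mean was 7.13 to 7.14 on the MA arrays and 6.94 to 6.97 on the control arrays. Past 1.2-fold 5 were higher and 1 lower, as were 5.92% and 6.87% of all named genes. The brightest of them were Gsn, lower by 0.19, and Dcn at -0.04 (adjusted p = 0.128), which do not show the rise of those 5. Of 9 markers of smooth muscle and pericytes, 1 rose and 4 fell, with Rgs5 lower by 0.59, Des as given above and a mean of 6.37 to 6.40 on the MA arrays and 6.52 to 6.53 on the control arrays. Of 8 Schwann cell markers, 4 rose and 2 fell. Among those that rose were Pmp22, by 0.24, and Ncam1, which denervated fibers and satellite cells also express. Their mean was 5.64 to 5.66 on the MA arrays and 5.56 to 5.57 on the control arrays. T cell markers (1 of 9 higher, 3 lower, 4 under the background limit in both groups) and blood markers (1 of 6 higher, 3 lower) had Cd3e higher by 0.14 and Hba-a1 lower by 0.07 as their brightest. Adipocyte markers were higher in 5 of 7 cases and lower in 1, with Car3 higher by 0.07 and Fabp4 lower by 0.22.

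**Figure D4:**
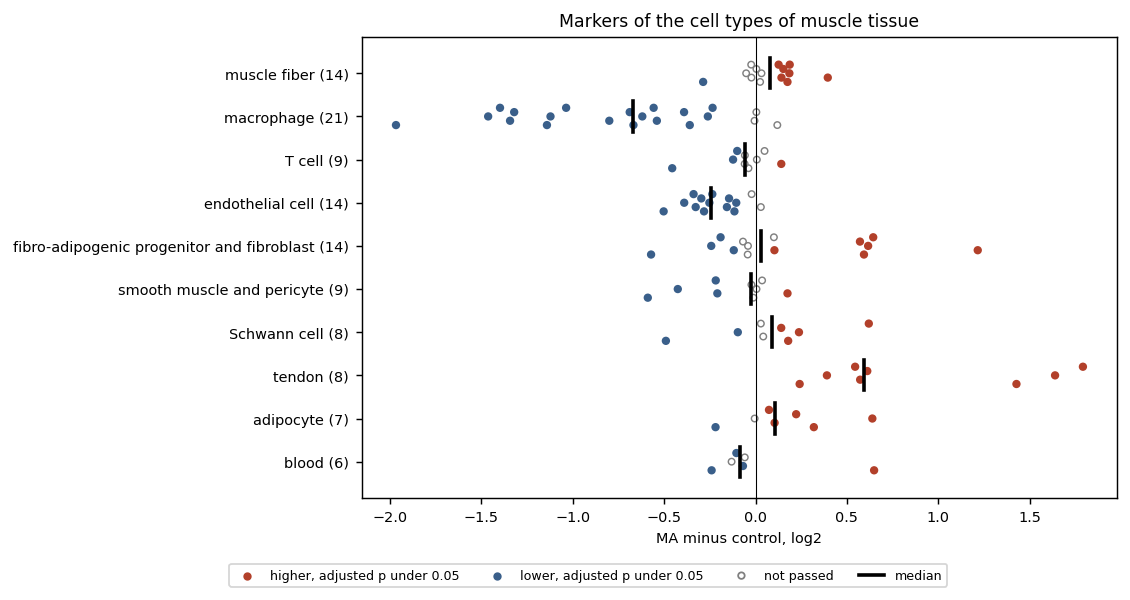
Difference MA minus control (log2, horizontal axis) of each measured marker of 10 cell types, with the number of markers in parentheses, filled points where the adjusted p was under 0.05, open points where it was not, and a black bar at the median. Macrophage markers have a median of -0.67, tendon markers one of 0.59 and muscle fiber markers one of 0.08.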

How the data were processed

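The deposited values are log2 values, 1 per probe set, that the authors made from Affymetrix mouse expression arrays. Their software was Expression Console, run with RMA, so that arrays were background-corrected, quantile-normalized and summarized by probe set. Its version is not given in the sources used here. The series' design text gives a human array type, whereas the probe set names belong to the mouse array.

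In R 4.3.3, limma 3.58.1 (lmFit and eBayes, no covariate) was fitted to 45037 probe sets of 6 arrays, 3 per group, without the 104 array controls, and p-values were adjusted by Benjamini-Hochberg over all of them. Of these, 28898 name 1 gene in the platform annotation, which can be old, 551 name several and 15588 none. For each gene the brightest probe set naming it alone was taken, and no test of a gene list was run. The steps were checked on simulated data. The number of arrays limits the precision.

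Named were all members, up to 5 list genes per direction past 1.2-fold and above the background limit in either group, the 3 brightest genes of a list and the 2 brightest markers of a cell type. Other genes were named after their values were seen. The limit leaves out the all-GC control, a choice made after seeing the values. The members and lists were chosen with earlier results of these data known. Alternatives tried were the methods' one-way test, other variance priors and scalings, dim filters, array weights, a replicate block, averaging the probe sets of each gene, a 1.5-fold rule and leaving out each array.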

Additional observations from a re-analysis of the deposited data

How the results depend on the processing

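Over the alternatives, 176 values of single probe sets of the members kept their direction and their side of the threshold, and the exceptions were the 4 lost calls of Pax7, given above, and 1 value of Pax3. The difference of Pax3 turned to -0.087 (adjusted p = 0.00836) when its 3 probe sets were averaged. The count of members passing the test was 9 in the fit as reported and lay between 8 and 9 when each array was left out in turn, and that of probe sets between 10 and 11. A fold over 1.5 in place of 1.2 left 2 of 6 genes, Megf10 and Mymx. With only probe sets above all nonspecific controls, the all-GC one included, 6211 were tested and 5301 passed. Of the members only Myod1, Myog, Myf5, Myf6 and Mymx were left to test, and all 5 passed at 5 probe sets, 3 of them lower. Of the list genes, 75 were tested there and 68 passed, 61 of them among the 109 that passed as reported. Without that control the limit is 3.95, a filter chosen after seeing the data, and 9 members passed, as did 15749 of 27407 probe sets. The one-way test of the methods called 20223 probe sets at an unadjusted p under 0.05, 4633 of them with a fold over 1.2, and 14884 after Benjamini-Hochberg adjustment. Arrays with the same replicate number deviated with r of 0.19, 0.04 and 0.14, against -0.18 to 0.07 for other pairs of an MA and a control array, and 4 of the 6 arrays correlated best with their own number. That is a hint of pairing from the data, but 1 pair stayed under 0.1 and the labels name no shared animal or batch, so the arrays were not treated as paired. With the replicate block 9 members and 108 list genes passed, and 19844 probe sets in place of 19331. The background limit of 3.95 bounds what could be measured for Pax7 and 2 probe sets of Pax3.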

Other observations

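Genes of DNA replication and mitosis, which dividing precursor cells of muscle express along with other dividing cells, mostly did not pass the test. Of 21 measured, 5 rose, 1 fell and 15 did not pass, a share of 28.6% passing against 47.8% of all named genes, and 7 lay at or under the background limit in both groups. Mcm6, a subunit of the replicative helicase, averaged 6.55 ± 0.02 on MA arrays and 6.10 ± 0.02 on control arrays (SD, n = 3 each), a rise of 0.45. Rrm2, a subunit of ribonucleotide reductase, rose by 0.28 and Pcna, the sliding clamp of DNA polymerase, by 0.07, while Mcm2, another helicase subunit, differed by 0.06 (adjusted p = 0.0794). Ccnd1, the cyclin of entry into the cell cycle, fell by 0.20, and Mki67, under the background limit, averaged 3.32 on MA arrays and 3.38 on control arrays. Without MA replicate 1, MA replicate 2 or control replicate 1, and with the one-way test of the methods, 3 of the 21 rose. Without control replicate 1 and with array weights, 2 fell.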
